A study of Homo sapiens with 12 samples.

Results

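The genes described here are 10 genes of fatty acid synthesis, desaturation and elongation, chosen by name: SREBF1, ACLY, ACACA, FASN, SCD, FADS1, FADS2, FADS3, ELOVL5 and ELOVL6. All 10 had a row among the 13820 genes of the deposited count table, and all 10 passed the filter on low counts. They were measured by sequencing of mRNA 3' ends in 12 libraries of Z-138, a cell line established from mantle cell lymphoma, which form 4 groups of 3. The groups were SMARCA4 shRNA knockdown cells given 3 µM ibrutinib plus 3 µM venetoclax, control shRNA cells given the same drugs, knockdown cells given DMSO, and control shRNA cells given DMSO. Ibrutinib blocks BTK, a kinase of B cell receptor signalling, and venetoclax blocks the survival protein BCL2. All 4 groups were cultured with doxycycline, and none was without it. The drug pair was given only in combination, 1 knockdown label stands for the SMARCA4 shRNA, and knockdown goes with its construct in every library, so effects of SMARCA4 loss and other effects of the construct cannot be told apart. Nothing in the labels ties the replicates to separate cultures, and the p-values below therefore rest on the spread of these libraries alone, which may be technical.

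Fatty acid synthesis starts in the cytosol from citrate. ATP citrate lyase (ACLY) splits it to acetyl-CoA, acetyl-CoA carboxylase (ACACA) makes malonyl-CoA, and fatty acid synthase (FASN) joins these units into palmitate. Stearoyl-CoA desaturase (SCD) puts the first double bond into saturated chains and so makes monounsaturated fatty acids. FADS1 and FADS2 encode the delta-5 and delta-6 desaturases, which act on essential fatty acids from the diet or medium to make polyunsaturated ones such as arachidonic acid. FADS3 encodes a related desaturase that acts on sphingoid bases. ELOVL6 lengthens saturated and monounsaturated chains, and ELOVL5 lengthens polyunsaturated ones. SREBF1 encodes SREBP1, the transcription factor known for switching on this set of genes, while its relative SREBP2, encoded by SREBF2, is better known for cholesterol synthesis.

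Total counts ran from 7279503 to 22528537 per library, the deepest being replicate 3 of the knockdown DMSO group. Levels are given as CPM, the counts of a gene scaled to a common library size by edgeR's TMM factors, and differences as log2 fold changes. A 3' tag is counted once per transcript whatever its length, and levels are compared only within a gene. SMARCA4, the targeted gene, had 159 to 177 CPM in knockdown DMSO libraries against 555 to 599 CPM in control DMSO libraries, and 167 to 184 CPM in knockdown libraries under drug against 588 to 642 CPM in control libraries under drug. One library, replicate 1 of the control group under drug, was assigned by elimination, because its column names the shRNA and the replicate but no treatment. Of 8 markers of B cells and mantle cell lymphoma, 7 had a row and were detected in every library, among them cyclin D1 (CCND1) at 3290 to 4889 CPM. Of 12 markers of T cells, monocytes, fibroblasts and epithelium, 2 had a row (CD3G and COL1A1), and of 6 hepatocyte and adipocyte markers 0 had one. The cells are bulk samples, so fewer cells of a type and less RNA per cell cannot be told apart.

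SMARCA4 knockdown without drug lowered all 3 FADS genes, while the enzymes that build palmitate had log2 fold changes between -0.04 and -0.02 and did not pass the test. FADS1 was left at 32.6% of the control level, FADS2 at 12.5% and FADS3 at 27.7%. Of the 10 genes, 3 fell and 1 rose, the rise being that of ELOVL5, and 6 did not pass the threshold of adjusted p = 0.05. Of all 12602 genes tested, 16.2% fell and 15.1% rose at the same threshold. The median log2 fold change was -0.03 over the 10 genes and 0.0038 over all genes tested.

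FADS2, the delta-6 desaturase, had 1.53, 0.326 and 1.20 CPM in the knockdown DMSO libraries, from 14, 3 and 27 counts, against 8.60, 8.57 and 8.71 CPM in the control DMSO libraries, from 86, 71 and 73 counts. The 3 knockdown libraries lay far below the 3 control libraries, and the control libraries lay close together. Its log2 fold change was -3.00 (SE 0.25, adjusted p = 4.34e-11 by edgeR's quasi-likelihood test with Benjamini-Hochberg adjustment over all genes). The 95% interval ran from -3.52 to -2.48, and the few counts behind the knockdown values make this the widest interval of the FADS genes. FADS1, the delta-5 desaturase, had 9.84, 8.36 and 8.82 CPM in knockdown DMSO libraries against 27.1, 27.2 and 28.4 CPM in control DMSO libraries, with no overlap. Its log2 fold change of -1.62 (SE 0.11) passed the threshold (adjusted p = 1.45e-13 by edgeR). FADS3 had 13.6, 14.3 and 14.7 CPM in knockdown DMSO libraries against 56.8, 54.0 and 43.6 CPM in control DMSO libraries. Again the groups did not overlap, although control replicate 3 lay below the other control libraries, and FADS3 fell by 1.85 (SE 0.10, adjusted p = 1.27e-15 by edgeR). In each of 20 alternative analyses these 3 falls passed the threshold.

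**Figure D1:**
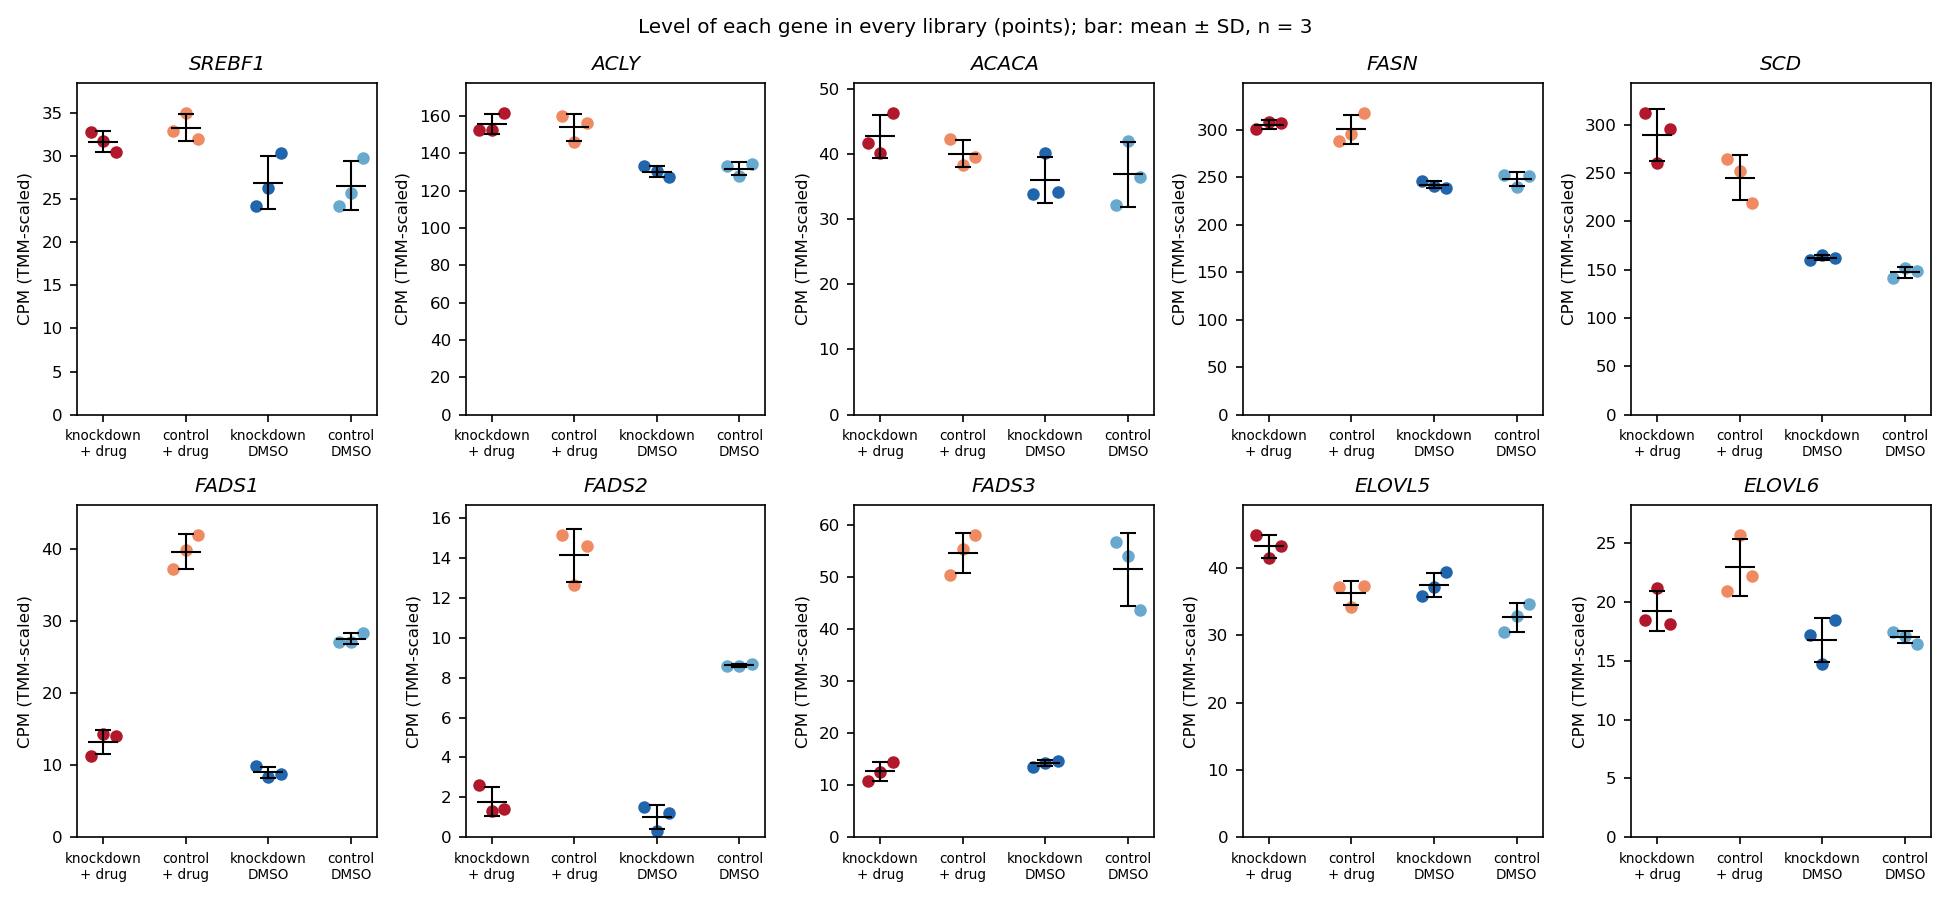
TMM-scaled CPM of each of the 10 genes (vertical axes from 0) in every library of the 4 groups (horizontal axes), with points for libraries and bars for the mean ± SD of 3. FADS1, FADS2 and FADS3 lay lower in both knockdown groups than in their control groups, while SCD and FASN lay higher in both drug groups than in the DMSO groups.

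The palmitate pathway itself did not pass the threshold for knockdown in DMSO. FASN had 246, 241 and 239 CPM in knockdown DMSO libraries against 253, 240.1 and 252 CPM in control DMSO libraries. The ranges overlapped, and its log2 fold change of -0.04 had a 95% interval from -0.14 to 0.07 (adjusted p = 0.630 by edgeR). ACLY averaged 130.2 ± 3.05 CPM in knockdown DMSO libraries and 132 ± 3.67 CPM in control DMSO libraries (SD, n = 3 each), with an interval of the log2 fold change from -0.13 to 0.10. ACACA averaged 36.0 ± 3.53 CPM in knockdown DMSO libraries and 36.8 ± 4.98 CPM in control DMSO libraries (SD, n = 3 each), with an interval from -0.22 to 0.15. SREBF1 averaged 26.9 ± 3.10 CPM in knockdown DMSO libraries and 26.5 ± 2.85 CPM in control DMSO libraries (SD, n = 3 each), with an interval from -0.15 to 0.24. These intervals bound the change that such libraries leave possible for each gene, and none of them reached the size of the FADS changes.

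SCD differed from the other desaturases in sign. It had 160.1, 165 and 162 CPM in knockdown DMSO libraries against 141, 152 and 148 CPM in control DMSO libraries. All 3 knockdown libraries were above all 3 control libraries, yet the difference, 0.14 on the log2 scale with an SE of 0.07, missed the threshold at adjusted p = 0.102 by edgeR. It passed in 1 of 20 alternatives, the fit of these 2 groups alone (0.15, adjusted p = 0.0238 by edgeR, over a range of 0.0238 to 0.238 in the alternatives). ELOVL5, the elongase of polyunsaturated chains, had 35.9, 37.1 and 39.4 CPM in knockdown DMSO libraries against 30.5, 32.8 and 34.7 CPM in control DMSO libraries. The groups lay next to each other without overlap, and ELOVL5 rose by 0.21 (SE 0.08, adjusted p = 0.0428 by edgeR). That call ended in 7 of 20 alternatives, among them those without control DMSO replicate 1 or 2, control replicate 1 under drug, or knockdown DMSO replicate 2 or 3 (adjusted p of up to 0.188). ELOVL6, the elongase of saturated chains, averaged 16.8 ± 1.87 CPM in knockdown DMSO libraries and 17.0 ± 0.523 CPM in control DMSO libraries (SD, n = 3 each; adjusted p = 0.995 by edgeR).

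Under ibrutinib plus venetoclax the same 3 FADS genes were lower in knockdown than in control cells, and SCD and ELOVL5 were higher. Of the 10 genes, 3 fell and 2 rose, where 16.3% of all genes tested fell and 14.8% rose. These libraries are separate from those given DMSO. FADS2 had 2.62, 1.31 and 1.43 CPM in knockdown libraries under drug, from 20, 11 and 13 counts, against 15.2, 12.7 and 14.6 CPM in control libraries under drug, from 130, 98 and 121 counts. The log2 fold change of -3.00 (SE 0.24; adjusted p = 1.22e-11 by edgeR) left 12.5% of the control level. FADS1 had 11.3, 14.3 and 14.05 CPM in knockdown libraries under drug against 37.2, 39.9 and 41.9 CPM in control libraries under drug, and fell by 1.58 (SE 0.10, adjusted p = 1.37e-13 by edgeR). For both genes every knockdown library lay below every control library by a wide margin. FADS3 had 10.9, 12.5 and 14.5 CPM in knockdown libraries under drug against 50.4, 55.3 and 58.0 CPM in control libraries under drug, and fell by 2.10 (SE 0.11, adjusted p = 6.01e-16 by edgeR).

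SCD had 312, 259.8 and 296 CPM in knockdown libraries under drug against 264, 252 and 219 CPM in control libraries under drug. The groups overlapped, since knockdown replicate 2 lay below control replicate 1, and SCD rose by 0.24 (SE 0.06, adjusted p = 0.00459 by edgeR). It passed the threshold in all 20 alternatives, with adjusted p of up to 0.0477. ELOVL5 had 44.9, 41.5 and 43.2 CPM in knockdown libraries under drug against 37.2, 34.2 and 37.3 CPM in control libraries under drug, without overlap, and rose by 0.25 (SE 0.08, adjusted p = 0.0163 by edgeR). That call ended without control replicate 2 or knockdown replicate 1 under drug (adjusted p of up to 0.0820). ELOVL6 averaged 19.3 ± 1.71 CPM in knockdown libraries under drug and 23.0 ± 2.44 CPM in control libraries under drug (SD, n = 3 each). Its log2 fold change of -0.25 missed the threshold (adjusted p = 0.0894 by edgeR). For FASN, ACLY, ACACA and SREBF1 the log2 fold changes were between -0.07 and 0.09, with adjusted p of 0.489 or more.

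Of the 7 B cell and mantle cell lymphoma markers tested, 6 fell and 1 (SOX11) rose with knockdown in DMSO, and 5 fell and 1 rose under drug, where 16.2% of all genes fell and 15.1% rose in DMSO and 16.3% fell and 14.8% rose under drug. MS4A1, which encodes the B cell surface antigen CD20, had 70.8 to 75.5 CPM in knockdown DMSO libraries against 183 to 192 CPM in control DMSO libraries. Both tested markers of other cell types, CD3G and COL1A1, also fell in both comparisons, CD3G to 1.31 to 2.06 CPM in knockdown DMSO libraries against 15.4 to 16.2 CPM in control DMSO libraries, and COL1A1 to 14.8 to 15.1 CPM against 19.6 to 23.7 CPM in the same groups. The other 10 markers of T cells, monocytes, fibroblasts and epithelium had no row. Ribosomal 18S and 28S RNA took 10.0% to 11.1% of counts in knockdown DMSO libraries against 8.86% to 9.47% in control DMSO libraries, and 7.20% to 8.98% in knockdown libraries under drug against 10.2% to 10.8% in control libraries under drug. The part of these shifts in the FADS result was not tested.

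FADS1, FADS2 and FADS3 stand side by side on chromosome 11, so the promoter sequences of these genes and of SCD are shown here as the regions nearest to the transcripts that moved together and apart. They are the 250 bases before each start in RefSeq's table on GRCh38.p14, a later build than the authors' hg19, and 9 of the 10 genes had an entry (FASN had none). Sequences are written 5' to 3' in the direction of the gene. Capitals mark each CCAAT box, the motif bound by NF-Y, in either direction (CCAAT, or ATTGG when inverted).
FADS1 (chr11:61817004-61817253, minus strand): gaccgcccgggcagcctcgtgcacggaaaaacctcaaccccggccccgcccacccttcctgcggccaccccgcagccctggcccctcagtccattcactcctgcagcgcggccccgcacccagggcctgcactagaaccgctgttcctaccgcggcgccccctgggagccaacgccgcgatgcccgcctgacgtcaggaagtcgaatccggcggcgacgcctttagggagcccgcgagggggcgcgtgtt
FADS2 (chr11:61816154-61816403, plus strand): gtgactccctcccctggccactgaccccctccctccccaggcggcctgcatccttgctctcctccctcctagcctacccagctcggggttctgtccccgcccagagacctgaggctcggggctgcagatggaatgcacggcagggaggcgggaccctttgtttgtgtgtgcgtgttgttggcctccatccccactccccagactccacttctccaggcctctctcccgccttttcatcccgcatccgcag
FADS3 (chr11:61891546-61891795, minus strand): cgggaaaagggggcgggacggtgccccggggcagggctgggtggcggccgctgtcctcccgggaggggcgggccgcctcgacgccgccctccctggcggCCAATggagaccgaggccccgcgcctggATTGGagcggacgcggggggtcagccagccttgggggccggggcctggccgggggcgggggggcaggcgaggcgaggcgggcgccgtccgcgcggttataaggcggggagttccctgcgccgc
SCD (chr10:100346983-100347232, plus strand): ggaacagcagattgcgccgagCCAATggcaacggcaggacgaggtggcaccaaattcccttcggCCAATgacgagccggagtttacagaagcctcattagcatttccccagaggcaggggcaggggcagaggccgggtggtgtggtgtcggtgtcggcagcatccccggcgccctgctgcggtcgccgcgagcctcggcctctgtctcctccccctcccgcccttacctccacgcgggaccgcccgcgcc
The sequences of FADS3 and SCD each held 2 CCAAT boxes, counted in either direction, and those of FADS1 and FADS2 held 0. In SCD they read CCAAT, while FADS3 held 1 in each direction. Of the 35116 promoters searched, 32% held at least 1 in either direction. Only the letters TCACNCCAC were searched for as a sterol response element, on both strands. They were found in 0 of the entries of the 9 genes and in 0.883% of all promoters. Other forms of this element were not searched. An entry without a match says only that these letters are not in this window. FADS1 and FADS2 are read from opposite strands, and 2 starts of FADS2 were listed. The RefSeq start of FADS1 lies 599 bases inside FADS2 as counted from the FADS2 start shown, or 800 bases from the other. From these starts the first parts of FADS1 and FADS2 overlap. Any FADS2 start outside these 2 was not examined. These 3' libraries are read near each transcript's end, whereas the overlap lies at these starts of both genes. No strand setting of the counting is given in the sources used here, so any reads from the overlap itself could not be told apart.

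The genes beside the FADS cluster were examined in the same comparisons. In RefSeq's order the protein-coding genes run MYRF, TMEM258, FEN1, FADS1, FADS2, FADS3, RAB3IL1, BEST1, FTH1 and INCENP, and DAGLA precedes MYRF. DAGLA, RAB3IL1 and FTH1 had no row and BEST1 was removed by the filter, so 4 neighbours were tested. Of these, 3 fell and 0 rose with knockdown in DMSO, with a median log2 fold change of -0.22, and the same counts held under drug with a median of -0.23. Of all genes tested 16.2% fell in DMSO and 16.3% under drug, and 4 genes are few to set beside such shares. MYRF, which encodes a membrane-bound transcription factor, had 0.543 to 1.09 CPM in knockdown DMSO libraries against 2.10 to 2.66 CPM in control DMSO libraries, from 5 to 16 and 18 to 22 counts. It fell by 1.57 (SE 0.38, adjusted p = 0.00154 by edgeR) in DMSO and its log2 fold change was -2.20 (SE 0.44, adjusted p = 0.000201 by edgeR) under drug, on few counts. TMEM258, a subunit of the oligosaccharyltransferase complex, and FEN1, a flap endonuclease of DNA replication, lie between MYRF and FADS1. TMEM258 averaged 339 ± 16.1 CPM in knockdown DMSO libraries and 357 ± 4.21 CPM in control DMSO libraries (SD, n = 3 each; adjusted p = 0.335 by edgeR). FEN1 fell by 0.25 (SE 0.06, adjusted p = 0.00105 by edgeR) in DMSO and by 0.16 (SE 0.06, adjusted p = 0.0346 by edgeR) under drug. INCENP, a chromosomal passenger protein gene on the far side, fell by 0.19 (SE 0.06) in DMSO and by 0.29 (SE 0.07) under drug. The falls of FEN1 and INCENP were small beside those of the FADS genes, and their 95% intervals did not overlap those of any FADS gene.

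**Figure D2:**
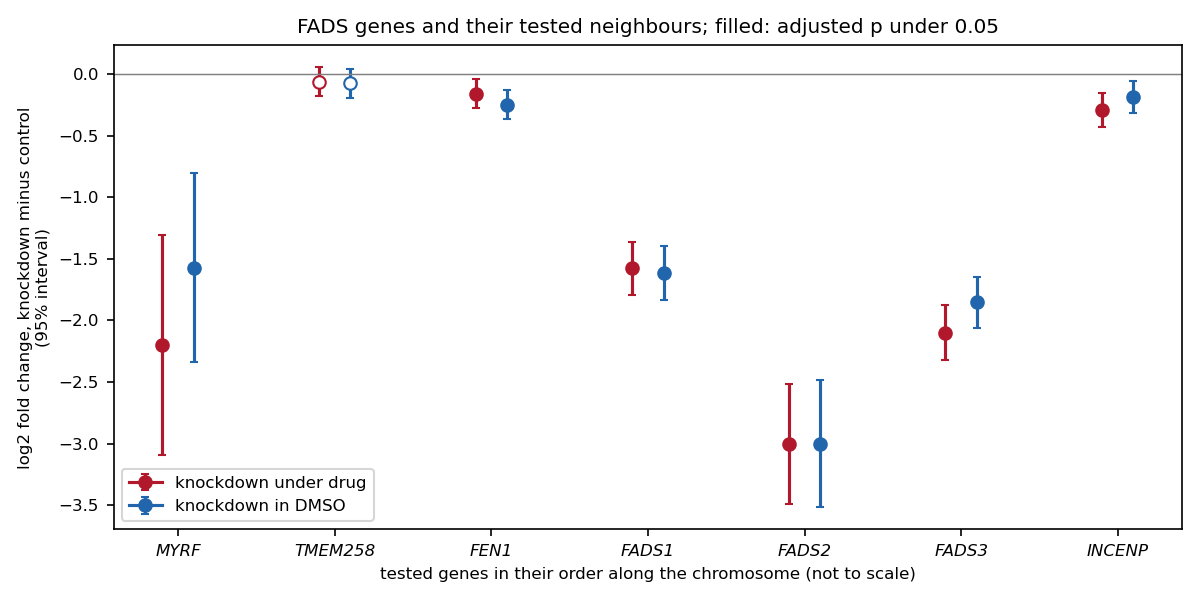
Log2 fold change of knockdown minus control (vertical axis, points with 95% intervals) for the 7 tested genes of the FADS stretch in their chromosomal order (horizontal axis, not to scale), under drug and in DMSO; filled points passed the threshold. MYRF and the 3 FADS genes lay at or below -1.57, while TMEM258, FEN1 and INCENP lay between -0.29 and -0.06.

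In control cells the drug pair raised 5 of the 10 genes and lowered 0, and the count was 3 without control DMSO replicate 1 or 2 or control replicate 1 or 3 under drug. Of all genes tested in this comparison 0.738% rose and 0.555% fell. The median log2 fold change was 0.30 over the 10 genes and 0.0017 over all genes tested. SCD had 264, 252 and 219 CPM in control libraries under drug against 141, 152 and 148 CPM in control DMSO libraries. The groups were well apart, and SCD rose by 0.74 (SE 0.07, adjusted p = 5.75e-09 by edgeR), a fold of 1.67. FASN had 288, 295 and 318 CPM in control libraries under drug against 253, 240.1 and 252 CPM in control DMSO libraries, also without overlap, and rose by 0.28 (SE 0.05, adjusted p = 0.00149 by edgeR). ACLY had 159.7, 146 and 156 CPM in control libraries under drug against 133, 128 and 134 CPM in control DMSO libraries and rose by 0.22 (SE 0.06, adjusted p = 0.0375 by edgeR). The groups did not overlap, but the ACLY call ended in 11 of 20 alternatives, among them 7 that left out a library (control DMSO replicate 1, 2 or 3, control replicate 1 or 3 under drug, knockdown DMSO replicate 1 or 2), with adjusted p of up to 0.265.

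FADS1 and FADS2 rose with SCD in control cells. FADS1 had 37.2, 39.9 and 41.9 CPM in control libraries under drug against 27.1, 27.2 and 28.4 CPM in control DMSO libraries, and rose by 0.53 (SE 0.09, adjusted p = 0.000679 by edgeR). Every drug library lay above every DMSO library, and the call held in all 20 alternatives. FADS2 had 15.2, 12.7 and 14.6 CPM in control libraries under drug against 8.60, 8.57 and 8.71 CPM in control DMSO libraries and rose by 0.71 (SE 0.18, adjusted p = 0.0342 by edgeR). Its groups did not overlap either, but the call ended on leaving out any 1 of these 6 libraries, with log2 fold changes of 0.66 to 0.79 and adjusted p of 0.0504 to 0.192. For FADS3 the log2 fold change was 0.08, with a 95% interval from -0.10 to 0.26 (adjusted p = 0.854 by edgeR). ELOVL6 had 21.0, 25.7 and 22.2 CPM in control libraries under drug against 17.5, 17.1 and 16.5 CPM in control DMSO libraries. All drug libraries were higher, yet its log2 fold change of 0.43 (SE 0.11) missed the threshold at adjusted p = 0.0514 by edgeR. It passed without knockdown DMSO replicate 2 or 3 or knockdown replicate 3 under drug (0.43 each, adjusted p of 0.0435 to 0.0467, over a range of 0.0435 to 0.325 in the alternatives). SREBF1 averaged 33.3 ± 1.58 CPM in control libraries under drug and 26.5 ± 2.85 CPM in control DMSO libraries (SD, n = 3 each), again without overlap and past no threshold (0.33, SE 0.10, adjusted p = 0.108 by edgeR). Without control DMSO replicate 3 SREBF1 passed (0.41, adjusted p = 0.0449 by edgeR, over a range of 0.0449 to 0.467 in the alternatives). ELOVL5 and ACACA had log2 fold changes of 0.15 and 0.13 and did not pass. On leaving out each library in turn ACACA ranged from 0.034, without control DMSO replicate 1, to 0.23, without control DMSO replicate 2.

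In knockdown cells the drugs raised 4 of the 10 genes and lowered 0, where 0.738% of all genes rose and 0.548% fell. SCD had 312, 259.8 and 296 CPM in knockdown libraries under drug against 160.1, 165 and 162 CPM in knockdown DMSO libraries, a rise of 0.83 (SE 0.07, adjusted p = 2.32e-10 by edgeR) or 1.78-fold. FASN had 300.4, 309 and 307 CPM in knockdown libraries under drug against 246, 241 and 239 CPM in knockdown DMSO libraries and rose by 0.34 (SE 0.05, adjusted p = 1.00e-04 by edgeR). Both genes had the drug libraries clear of the DMSO libraries. ACLY rose by 0.26 (SE 0.06, adjusted p = 0.00920 by edgeR), which ended without replicate 3 of either knockdown group (adjusted p of up to 0.0788). FADS1 had 11.3, 14.3 and 14.05 CPM in knockdown libraries under drug against 9.84, 8.36 and 8.82 CPM in knockdown DMSO libraries, and rose by 0.57 (SE 0.12, adjusted p = 0.00822 by edgeR). That call ended without knockdown DMSO replicate 3 or knockdown replicate 2 or 3 under drug (adjusted p of up to 0.0736). For FADS2 the log2 difference was 0.71 with an SE of 0.35 (adjusted p = 0.479 by edgeR), on 11 to 20 counts in knockdown libraries under drug and 3 to 27 in knockdown DMSO libraries. On these few counts the 95% interval ran from -0.0049 to 1.43, which holds both 0 and the size of the rise seen in control cells. The log2 difference in knockdown cells was 0.36 without knockdown replicate 1 under drug and 0.43 without knockdown DMSO replicate 2, and it ranged up to 0.91 on leaving out other libraries. FADS3 had -0.17 with an interval from -0.42 to 0.09. SREBF1, ACACA and ELOVL5 had log2 fold changes of 0.20 to 0.26 with all 3 drug libraries above all 3 DMSO libraries, but none passed (adjusted p of 0.224 to 0.417 by edgeR), nor did ELOVL6 at 0.18. How many of all genes tested were separated in this way was not counted, so the separation adds nothing to these calls.

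**Figure D3:**
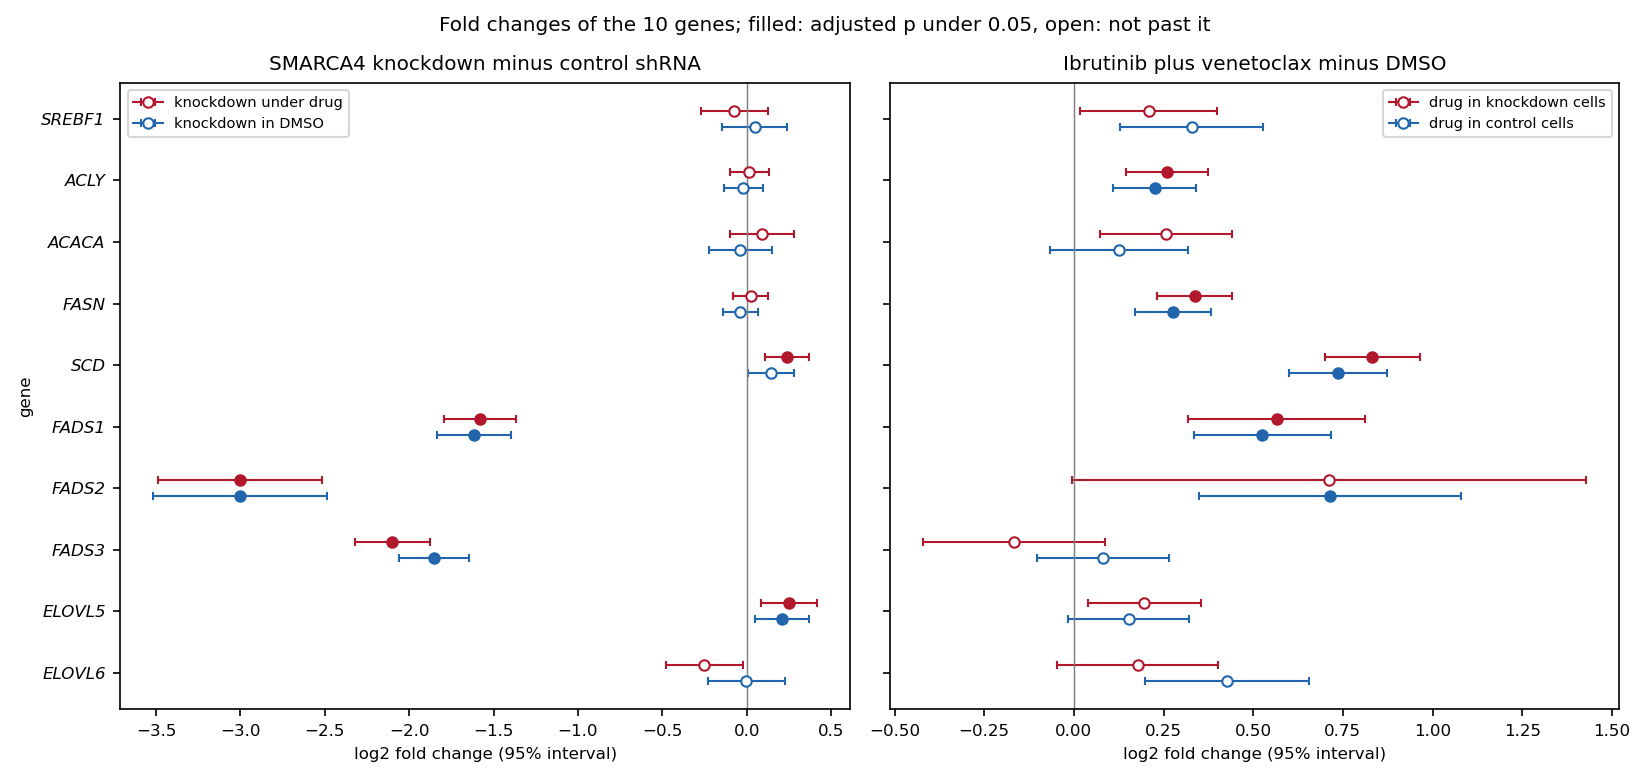
Log2 fold changes with 95% intervals (horizontal axes) of the 10 genes (vertical axis), on the left for knockdown minus control shRNA and on the right for drug minus DMSO; filled points passed the threshold. On the left the 3 FADS genes stand between -3.00 and -1.58 and every other gene between -0.25 and 0.25, while on the right SCD stands at 0.83 in knockdown and 0.74 in control cells.

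The drug response of these genes was then compared between knockdown and control cells by the interaction term. It passed for 0 of the 10 genes by edgeR, and for 0.00794% of all genes in the higher and 0.0159% in the lower direction. An unadjusted p under 0.05 by edgeR was reached by 0 of the 10 and by 674 of all 12602 genes tested. DESeq2 and limma-voom also called 0 of the 10. With so few genes reached over the whole table, 0 of 10 cannot tell whether the drug response of these genes differs. The interaction was 0.04 for FADS1 with a 95% interval from -0.27 to 0.35, and 0.10 for SCD with an interval from -0.09 to 0.29. For FADS2 the interval from -0.90 to 0.90 was wider on either side than its drug response of 0.71 in control cells. FADS3 and ELOVL6 had the lowest values, -0.25 each, with intervals from -0.56 to 0.07 and from -0.57 to 0.07. Knockdown cells under drug had less FADS1 and FADS2 than control cells given DMSO. FADS1 was at 11.3 to 14.3 CPM in knockdown libraries under drug and 27.1 to 28.4 CPM in control DMSO libraries, and FADS2 at 1.31 to 2.62 CPM and 8.57 to 8.71 CPM in the same groups. SCD was the other way round, at 259.8 to 312 CPM in knockdown libraries under drug and 141 to 152 CPM in control DMSO libraries.

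FADS1 and FADS2 were set against SCD by the log2 ratio of their CPM within each library, which removes scaling between libraries. Each effect was tested by a two-sided exact permutation test over the 12 libraries, with labels permuted within each treatment or each shRNA (400 arrangements, smallest p 0.005), and adjusted over 6 such tests. An exact permutation test of 3 libraries against 3 alone could not go below p = 0.10. Knockdown lowered FADS1 relative to SCD, with log2 differences of -1.74 in DMSO and -1.82 under drug and a mean of -1.78 (exact permutation p = 0.005, adjusted p = 0.01). For FADS2 relative to SCD the mean difference was -3.15 (exact permutation p = 0.005, adjusted p = 0.01), with -3.16 in DMSO and -3.14 under drug. The fall of FADS2 also exceeded that of FADS1, by a mean of -1.38 (exact permutation p = 0.005, adjusted p = 0.01). These 3 p-values are the smallest that the permutations can give, and knockdown and control libraries did not overlap in any of the 3 ratios within either treatment. The ratios use the same 12 libraries as the tests above, and the comparison with SCD was chosen with earlier results of these data known. The ratio tests therefore add no separate support for the falls of FADS1 and FADS2.

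For the drugs none of the 3 ratios passed after adjustment. FADS1 relative to SCD had a mean difference of -0.25 between drug and DMSO libraries, which missed the threshold after adjustment (exact permutation p = 0.045, adjusted p = 0.0675). It passed without control replicate 3 under drug (-0.31, adjusted p = 0.03) or knockdown replicate 2 under drug (-0.32, adjusted p = 0.0225). FADS2 relative to SCD had -0.02 (exact permutation p = 0.925, adjusted p = 0.925) and FADS2 relative to FADS1 had 0.22 (exact permutation p = 0.515, adjusted p = 0.618). In control DMSO libraries the FADS2 to FADS1 ratio was -1.65 ± 0.0263 (SD, n = 3), whereas in knockdown DMSO libraries it was -3.08 ± 0.814 (SD, n = 3), with replicate 2, which held 3 FADS2 counts, at -4.01.

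**Figure D4:**
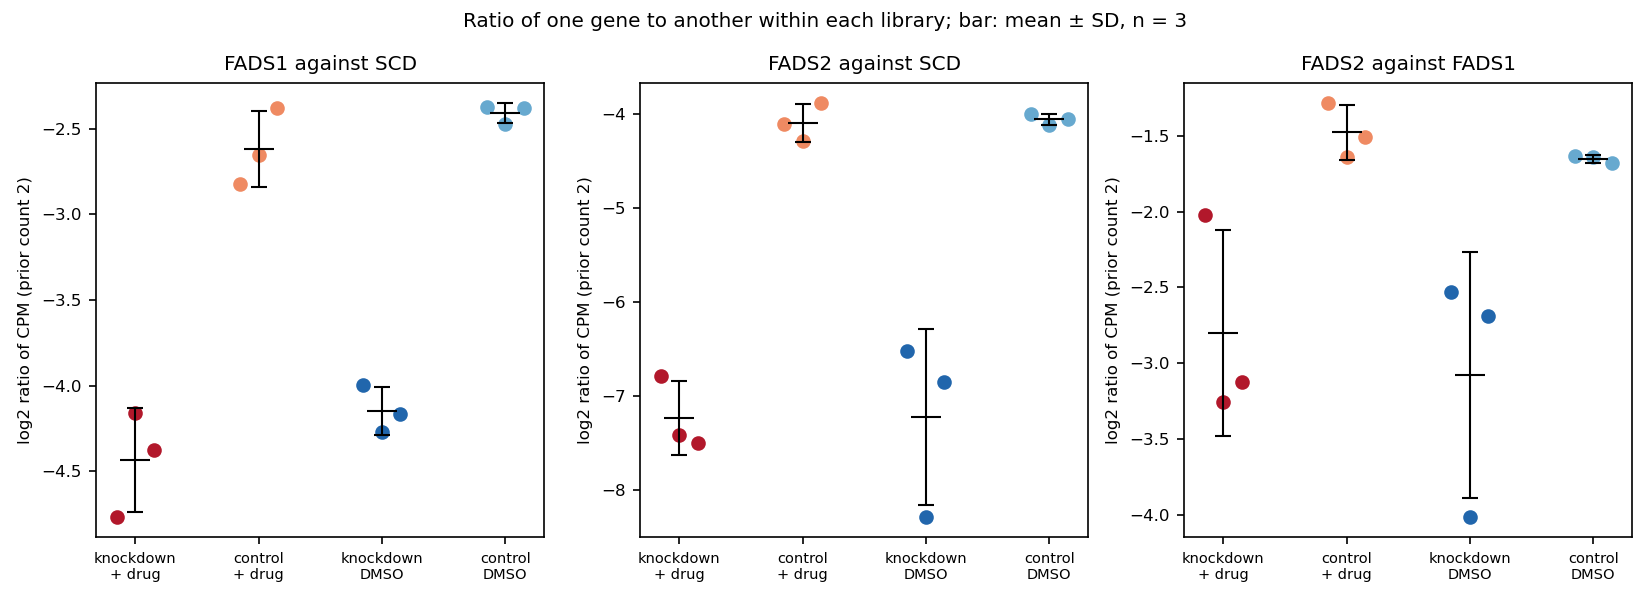
Log2 ratio of 1 gene's CPM to another's within each library (vertical axes; points for libraries, bars for the mean ± SD of 3) in the 4 groups (horizontal axes). Both FADS genes stood lower relative to SCD in the knockdown groups than in the control groups, with mean differences of -1.78 for FADS1 and -3.15 for FADS2.

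Other genes of fatty acid metabolism were read from the same fit by lists of names. Their counts stand against the shares over the whole table for knockdown, where 16.2% of all genes tested fell and 15.1% rose in DMSO and 16.3% fell and 14.8% rose under drug, with medians of 0.0038 and 0.0018. Of 8 tested genes of fatty acid synthesis and precursor supply outside the 10, 3 fell and 1 rose with knockdown in DMSO, and 2 fell and 1 rose under drug. The median log2 fold changes of this list were 0.07 and -0.01. IDH1, a cytosolic source of NADPH, rose by 0.34 (SE 0.10) in DMSO and 0.31 (SE 0.10) under drug. MID1IP1, which promotes polymerisation of acetyl-CoA carboxylase, fell by 0.46 (SE 0.11) in DMSO, and MCAT, of mitochondrial fatty acid synthesis, fell by 0.32 (SE 0.12). ACACB, the mitochondria-associated carboxylase, fell by 0.49 (SE 0.19) in DMSO and by 0.54 (SE 0.20) under drug, and OXSM, also of mitochondrial synthesis, fell by 0.46 (SE 0.15) under drug. Of 9 tested desaturase and elongation cycle genes outside the 10, 2 rose with knockdown in DMSO and 1 under drug, and 0 fell, with medians of -0.04 and -0.0079, where 15.1% of all genes rose in DMSO and 14.8% under drug. ELOVL3, an elongase of saturated very long chains, rose by 1.79 (SE 0.46) in DMSO and 1.99 (SE 0.49) under drug, on 11 to 46 counts per knockdown DMSO library against 2 to 8 per control DMSO library. The second stearoyl-CoA desaturase gene, SCD5, did not pass, with -0.22 (SE 0.14) in DMSO and -0.0079 (SE 0.15) under drug on the log2 scale.

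Of 11 tested SREBP and LXR regulators, 4 rose and 1 fell with knockdown in DMSO, and 3 rose and 1 fell under drug, with medians of 0.07 and 0.15. The other 6 in DMSO and 7 under drug did not pass, and among all genes tested 15.1% rose and 16.2% fell in DMSO and 14.8% rose and 16.3% fell under drug. INSIG1, which holds SREBP precursors in the endoplasmic reticulum, rose by 0.33 (SE 0.06) in DMSO and 0.44 (SE 0.06) under drug, and MLXIP, a glucose-sensing factor, by 0.42 (SE 0.08) and 0.45 (SE 0.09). SREBF2 rose by 0.28 (SE 0.06) and 0.20 (SE 0.06). RXRA, the partner of LXR, fell by 0.53 in both (SE 0.09 each). The drugs raised 2 of the 11 and lowered 0 in each cell population. Of all genes tested, the drugs raised 0.738% in each population. They lowered 0.555% in control and 0.548% in knockdown cells. SREBF2 averaged 139 ± 4.34 CPM in control libraries under drug and 100.0 ± 4.82 CPM in control DMSO libraries (SD, n = 3 each), a rise of 0.48 (SE 0.06), and it rose by 0.40 (SE 0.06) in knockdown cells. INSIG1 rose by 0.28 (SE 0.06) in control cells and 0.38 (SE 0.06) in knockdown cells.

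Among genes that use fatty acids, CPT1A and AGPAT2 fell in both treatments. Of 18 tested uptake and oxidation genes, 6 fell and 1 rose in DMSO and 6 fell and 1 rose under drug, with medians of -0.01 and 0.03. Among all genes tested 16.2% fell and 15.1% rose in DMSO, and 16.3% fell and 14.8% rose under drug. CPT1A, the gatekeeper of mitochondrial fatty acid oxidation, averaged 18.6 ± 1.85 CPM in knockdown DMSO libraries and 52.2 ± 1.95 CPM in control DMSO libraries (SD, n = 3 each). It fell by 1.52 (SE 0.09) in DMSO and by 1.48 (SE 0.10) under drug, while ACADM fell by 0.39 (SE 0.06) and 0.44 (SE 0.06) and HADH by 0.41 (SE 0.07) and 0.58 (SE 0.08), both being enzymes of the oxidation cycle. Of 12 tested genes of fatty acid activation and glycerolipid assembly, 4 fell and 3 rose in each treatment, beside those same shares, with medians of -0.09 and -0.27. AGPAT2, an acyltransferase of phosphatidic acid synthesis, fell by 1.02 (SE 0.10) and 1.12 (SE 0.11), and LPIN1, a phosphatidate phosphatase, by 0.54 (SE 0.07) and 0.52 (SE 0.07). ACSL3, an acyl-CoA synthetase, rose by 0.52 (SE 0.06) and 0.60 (SE 0.06). The drugs changed 0 of the 18 uptake and oxidation genes in either population, changed 0 of the 12 assembly genes in control cells, and raised 1 of them, ACSL3, by 0.26 (SE 0.06) in knockdown cells. Of the precursor genes IDH1 alone passed, rising by 0.41 (SE 0.11) in control and 0.38 (SE 0.10) in knockdown cells, and 0 of the other desaturase and elongation genes did. Beside these drug counts, 0.738% of all genes tested rose in each population. A fall was called for 0.555% in control and 0.548% in knockdown cells, so counts of 0 in such short lists say little.

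Across the 12 libraries the genes whose log2 CPM followed that of FADS2 most closely, among 8000 named genes whose mean log2 CPM reached 3, were ELK3, ANXA6, CBFB, GOT1 and the pseudogene TMSB4XP8, with Pearson coefficients of 0.967 to 0.974. For SCD they included HSPA5, POU2F2, FDFT1 and NFE2L1, with coefficients of 0.936 to 0.972. The libraries form 4 groups, which such coefficients mostly describe, and no p is given.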

How the data were processed

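The deposited values are raw counts per gene and library, in 1 table, per the file headers and the values, which are whole numbers. Per the submitters' processing notes, the tools were HTSeq and HISAT2 with bcl2fastq 2.17.1.14, and the build was hg19. The labels give Lexogen QuantSeq 3' libraries, in which 1 fragment is read near each transcript's end. The lowest row total was 13. Strand setting, annotation and any row filter: not given in the sources used here.

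Columns were matched to samples by name, 1 of the 12 by elimination. Genes were kept by filterByExpr (minimum count 10, minimum total 15), which left 12602. All 12 libraries entered edgeR 4.0.16 (R 4.3.3) with TMM scaling, 1 coefficient per group and quasi-likelihood F tests; Benjamini-Hochberg adjustment covered the whole table, and 0.05 was the threshold. The residual degrees of freedom were 8, and the standard error (SE) is the fold change divided by the square root of F. "Rose" and "fell" are used for genes past the threshold. Log ratios used log2 CPM with a prior count of 2. The 5 comparisons were the knockdown within each treatment, the drug pair within each shRNA, and the interaction.

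The 10 genes, the lists and the comparison with SCD were chosen with earlier results of these data known. Of the lists, HACD2 and HACD3 were found by Ensembl identifier under older symbols. Genes named outside the 10 were the tested neighbours of the FADS genes and, by rule, up to 3 per list and comparison with the smallest adjusted p, plus SCD5 and the markers, named after their values were seen. Alternatives were other scalings, filters and tests (DESeq2 1.42.0, limma-voom 3.58.1), fits of 2 groups, a replicate block and leaving out each library. Some genes that these rules name are not reported here. The scripts were tested on simulated data.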

Additional observations from a re-analysis of the deposited data

How the results depend on the processing

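Over 990 recomputed values of the 10 genes (20 alternatives for each of 4 comparisons and 19 for the interaction), 915 kept their direction and side of the threshold, 31 lost the call, 5 gained one and 39 changed sign. Every value that changed sign missed the threshold before and after. With library totals as scaling these were ACLY (0.0019) and ELOVL6 (0.019) for knockdown in DMSO, SREBF1 for knockdown under drug (0.0092) and FADS2 for the interaction (0.059). ELOVL6 for knockdown in DMSO also gave 0.0063 with no filter, 0.0076 with at least 5 CPM in 3 libraries, 0.0062 with limma-voom and 0.0082 in the fit of 2 groups. FADS2 for the interaction gave 0.014 with DESeq2, 0.11 with limma-voom and 0.0094 with the replicate block. FADS2 against SCD for the drug effect gave 0.050 with a prior count of 0.5. The filter at 5 CPM left 1 gene called for the interaction, against 3. The cause was not tested.

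On leaving out each library in turn, genes called ranged from 106 to 176 for the drug in control cells (lowest without control replicate 1 under drug, the library assigned by elimination), from 100 to 181 for the drug in knockdown cells (102 without knockdown replicate 1 under drug, 100 without knockdown DMSO replicate 3) and from 1 to 3 for the interaction. Of the 10 genes, 3 to 6 were called for the drug in control cells (3 without control DMSO replicate 1 or 2 or control replicate 1 or 3 under drug) and 2 to 4 for the drug in knockdown cells (2 without replicate 3 of either knockdown group). FADS1 against SCD for the drug effect ranged from -0.32 to -0.17, FADS2 against SCD from -0.29 to 0.15 and FADS2 against FADS1 from -0.0088 to 0.36. The single genes that changed sign ranged, for knockdown in DMSO, from -0.12 to 0.066 (ACACA), -0.041 to 0.0093 (ACLY), -0.086 to 0.074 (ELOVL6) and -0.060 to 0.14 (SREBF1). For knockdown under drug they ranged from -0.024 to 0.043 (ACLY) and -0.0056 to 0.070 (FASN), and for the drug in control cells from -0.027 to 0.16 (FADS3). For the interaction they ranged from -0.0030 to 0.064 (ACLY), -0.0010 to 0.090 (ELOVL5), -0.018 to 0.13 (FADS1) and -0.36 to 0.20 (FADS2).

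Same-numbered libraries did not deviate together from their group means (correlations of -0.12 to 0.082 over 12 pairs). Deviations from means of 3 libraries may be mostly counting noise, so these correlations cannot tell whether same-numbered libraries shared a culture or batch. With the replicate block ELOVL5 for knockdown in DMSO (0.20, adjusted p = 0.0607 by edgeR) and ACLY for the drug in control cells (0.22, adjusted p = 0.0524) missed the threshold, and no other call of the 10 genes changed. FADS2 held 3 to 27 counts per knockdown library, which limits every statement on its drug response in knockdown cells.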
